A study of Mus musculus with 9 samples.

Results

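Transforming growth factor beta (TGF-beta) and bone morphogenetic protein (BMP) signalling was followed at the RNA level, from ligands to SMADs, in MEFs, the fibroblasts that are cultured from mouse embryos. Genes were chosen by symbol: TGF-beta, activin and BMP ligands, 3 growth differentiation factor genes (Gdf6, Gdf10 and Gdf11), the receptors and co-receptors, the secreted antagonists, the SMADs, the SMURF ligases and the ID genes. A gene was kept if its row held at least 90 counts summed over the 9 libraries. The rule gave 44 genes of 29915 in the table, and 13 further symbols fell under the minimum. The least counted gene that was kept was Bmp8b with 99 counts, and the most counted gene left out was Bmp2 with 37.

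The libraries came from 1 MEF line of a genotype that the labels call mutator (5 libraries) and 1 wild-type (WT) MEF line (4 libraries). Mutator is a usual name for mice whose mitochondrial DNA polymerase lacks proofreading, but the labels name no allele. Neither line was treated. Both were seeded in 6-well plates, 5 wells per line, and harvested after 48 h. For its 5 wells WT has only 4 libraries. Poly(A)-selected RNA was sequenced with a stranded kit. The wells are technical replicates, so p-values reflect only how the wells of a single line vary, and a difference of genotype cannot be told apart from any other difference between the lines.

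In this signalling family a ligand dimer binds a pair of type I and a pair of type II receptor kinases, and the type I receptor phosphorylates receptor SMADs. SMAD2 and SMAD3 carry the TGF-beta and activin branch, SMAD1, SMAD5 and SMAD9 the BMP branch, and both join SMAD4 and act in the nucleus. Secreted antagonists trap BMPs or activins before they reach a receptor, and the inhibitory SMADs and SMURF ligases damp the signal inside the cell. In fibroblasts TGF-beta is best known for driving matrix production and contractile genes, and BMPs for inducing ID genes.

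Levels are counts-per-million (CPM) values computed from the deposited raw counts with library sizes scaled by TMM, edgeR's trimmed mean of M-values; library totals ran from 32045662 to 49511365 counts in mutator and from 26341230 to 36238653 counts in WT. A log2 fold change sets mutator over WT and carries its standard error (SE); it comes from edgeR's quasi-likelihood test, and a gene is said to have risen or fallen where its adjusted p (Benjamini-Hochberg over all genes tested) was under 0.05. Fibroblast markers were present for most of the list: 7 of 10 had a mean of at least 1 CPM, among them Col1a1, Vim and Pdgfrb, while Thy1, Lum and Dcn were near 0 in both lines. The fibroblast list summed to 8754 to 9884 CPM in mutator and 3270.2 to 3439.5 CPM in WT. Much of this gap was collagen: Col1a1 averaged 2685 CPM in mutator and 793 CPM in WT, and Col1a2 2586 and 205 CPM. Of the 7 tested markers of the list 5 rose, 1 fell and 1 did not pass, beside 40.7% of all genes that rose and 39.2% that fell. Among markers of other cell types, 5 of 6 epithelial ones were under 1 CPM, but their sum was 1.12 to 1.93 CPM in mutator and 100.4 to 109 CPM in WT, nearly all of it Krt18. The part of this difference in the results was not tested. Macrophage and blood markers summed to 3.74 to 4.54 CPM in mutator and 2.16 to 2.66 CPM in WT. Muscle markers summed to 0.577 to 0.865 CPM in mutator and 1.37 to 2.15 CPM in WT. Neural markers summed to 9.07 to 9.98 CPM in mutator and 19.2 to 20.1 CPM in WT. Sox2 and Tubb3 were the 2 neural markers tested, and 1 of them rose and 1 fell.

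All 44 genes were tested: 26 rose and 13 fell in mutator, and 5 did not pass. Of all genes tested 40.7% rose and 39.2% fell, 79.9% together, so most genes of any kind were called. A fitted change of at least 2-fold was less common: it held for 7 genes that rose and 5 that fell, against 11.3% and 6.53% of all genes. The median log2 fold change was 0.22, and 0.011 over all genes; the median size of the change was 0.53 and 0.35. In 34 of the genes the libraries of the lines did not overlap, which held for 71.9% of all genes. The filter on low counts was passed through 1 line alone by Bmp8b, Nog, Acvrl1 and Acvr2b, which favours a difference between the lines in these genes. All 4 are among the genes called at 2-fold or more, Acvr2b as a rise and the others as falls. The 2-fold counts are therefore partly set by the filter. The median log2 fold change of a chromosome's genes ran from -0.73 on chromosome 3 to 0.40 on chromosome 9. Each change was therefore also computed relative to the median of its chromosome, and on that scale 24 genes rose, 11 fell and 9 did not pass, with 77.9% of all genes called.

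**Figure D1:**
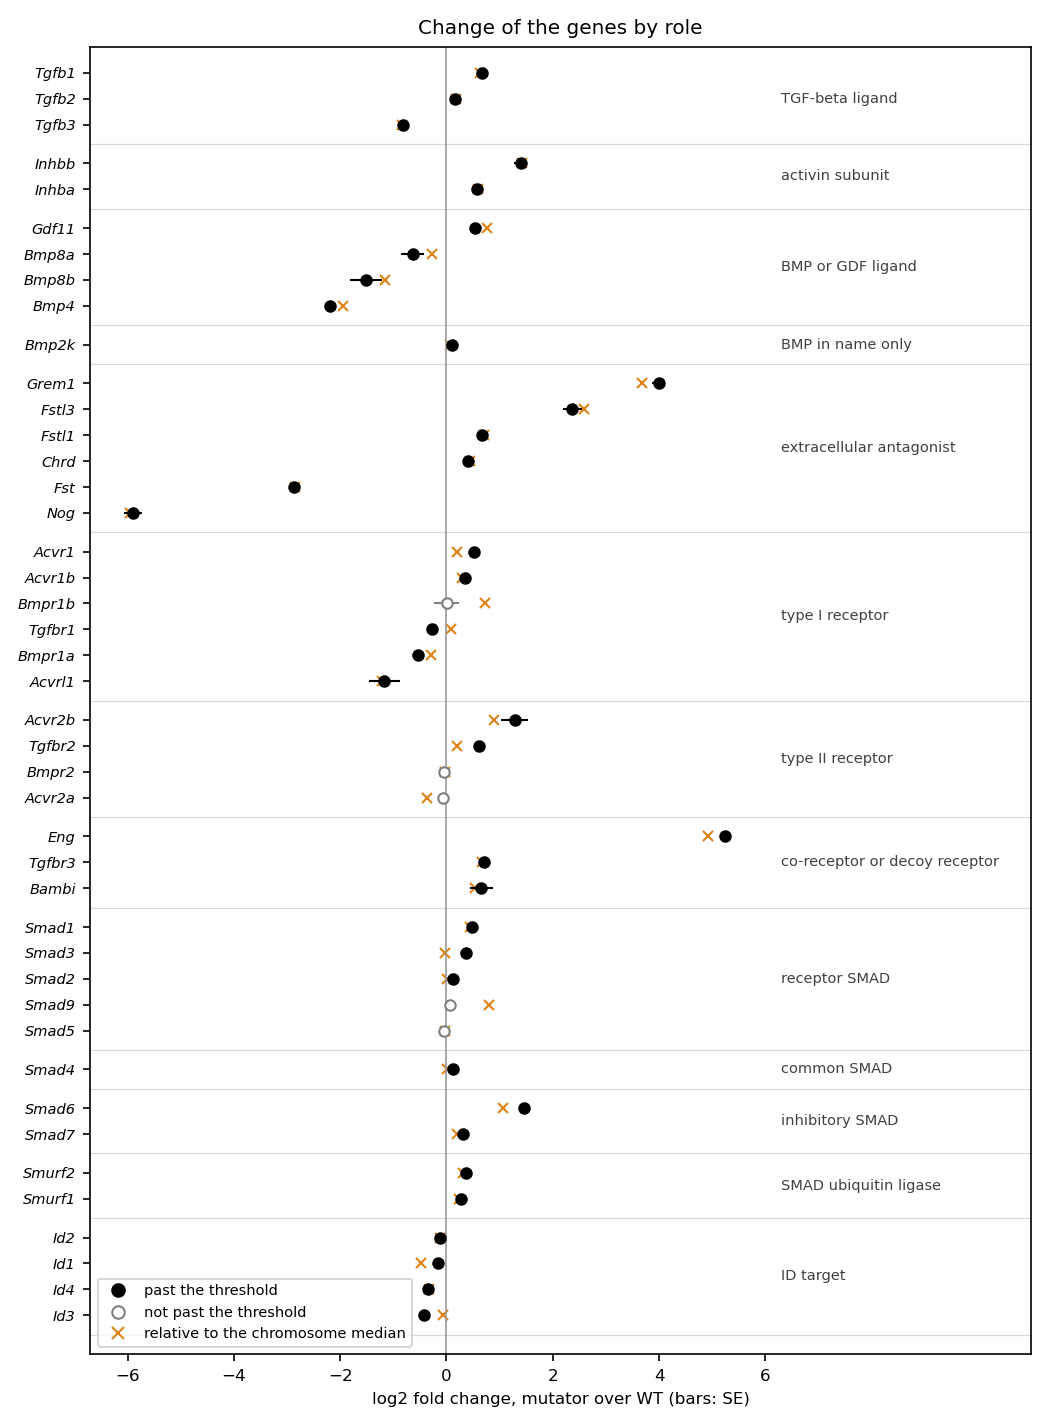
Log2 fold change of mutator over WT (horizontal axis) for 43 genes, grouped by role; points are fitted values with SE bars, open points did not pass the threshold, and crosses give the value relative to the chromosome median. Nog is at -5.90 and Eng at 5.24, while SMADs other than Smad6 lie between -0.044 and 0.48.

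Of the 6 secreted antagonists described here, 4 changed by at least 2-fold, which 17.8% of all genes did. Nog is among the 4 and passed the filter on low counts through WT alone, so its call is partly set by the filter. All 6 passed the test, 4 higher and 2 lower, and the libraries of the lines did not overlap in any of them; 79.9% of all genes passed and 71.9% had no overlap, so the counts of calls and of no overlap lie near those of all genes. Noggin, gremlin and chordin bind BMPs, while follistatin and the follistatin-like protein FSTL3 bind mainly activins. Nog, encoding noggin (GRCm38 chromosome 11, 89300638 to 89302559), had 0.208, 0.0681, 0.196, 0.0803 and 0.0309 CPM in the mutator wells, against 7.60, 7.11, 6.81 and 7.49 CPM in the WT wells. It was close to absent in every mutator well, with 25 counts over the 5 libraries and 890 over the 4 WT libraries. The log2 fold change was -5.90 ± 0.18 (SE), and the p-value is left out because of the filter. With bulk RNA, fewer cells that express a gene and less RNA per cell cannot be told apart. Fst, encoding follistatin (chromosome 13, 114452262 to 114458989), had 1.06, 0.976, 0.929, 0.763 and 0.834 CPM in the mutator wells, against 6.05, 7.39, 6.09 and 7.03 CPM in the WT wells, a 7.25-fold fall (log2 fold change -2.86 ± 0.11).

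Grem1, encoding the BMP antagonist gremlin, was high where Nog was low. It (chromosome 2, 113748675 to 113758648) had 7.84, 8.78, 8.46, 10.04 and 8.74 CPM in the mutator wells, against 0.527, 0.632, 0.457 and 0.565 CPM in the WT wells, so that the lowest mutator well was far above the highest WT well. Its log2 fold change was 4.00 ± 0.13 (edgeR adjusted p = 2.59e-15), which is 15.96-fold. Chrd, encoding the BMP antagonist chordin, rose less and averaged 6.48 ± 0.440 CPM in mutator (SD, n = 5) and 4.89 ± 0.142 CPM in WT (SD, n = 4) (log2 fold change 0.41 ± 0.071).

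Of the activin-binding transcripts, Fstl3 was the more abundant per kilobase (kb) of the longest annotated transcript in mutator and Fst in WT. Fstl3 had 5.10, 6.10, 8.04, 8.65 and 6.67 CPM in the mutator wells, against 1.44, 1.07, 1.10 and 1.73 CPM in the WT wells, with mutator replicates 3 and 4 the highest and replicate 1 the lowest; the log2 fold change was 2.37 ± 0.18. In GENCODE M21, 47.3% of the annotated exon bases of Fstl3 overlap Prss57 on the opposite strand, and the strand setting of the counting is not given in the sources used here. Among the other genes of the set, annotated overlap with an opposite-strand gene reached at most 13.97% of exon bases (Bmp2k with Paqr3).

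Fstl1, a secreted follistatin-like glycoprotein reported to bind BMP4, was the most abundant gene of the set per kb, with 394 ± 8.12 CPM per kb in mutator and 247 ± 0.996 CPM per kb in WT. It had 1538, 1507, 1486, 1459 and 1475 CPM in the mutator wells, against 935, 938, 930.3 and 938 CPM in the WT wells, a 1.60-fold rise with a narrow spread in either line (log2 fold change 0.67 ± 0.022).

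**Figure D2:**
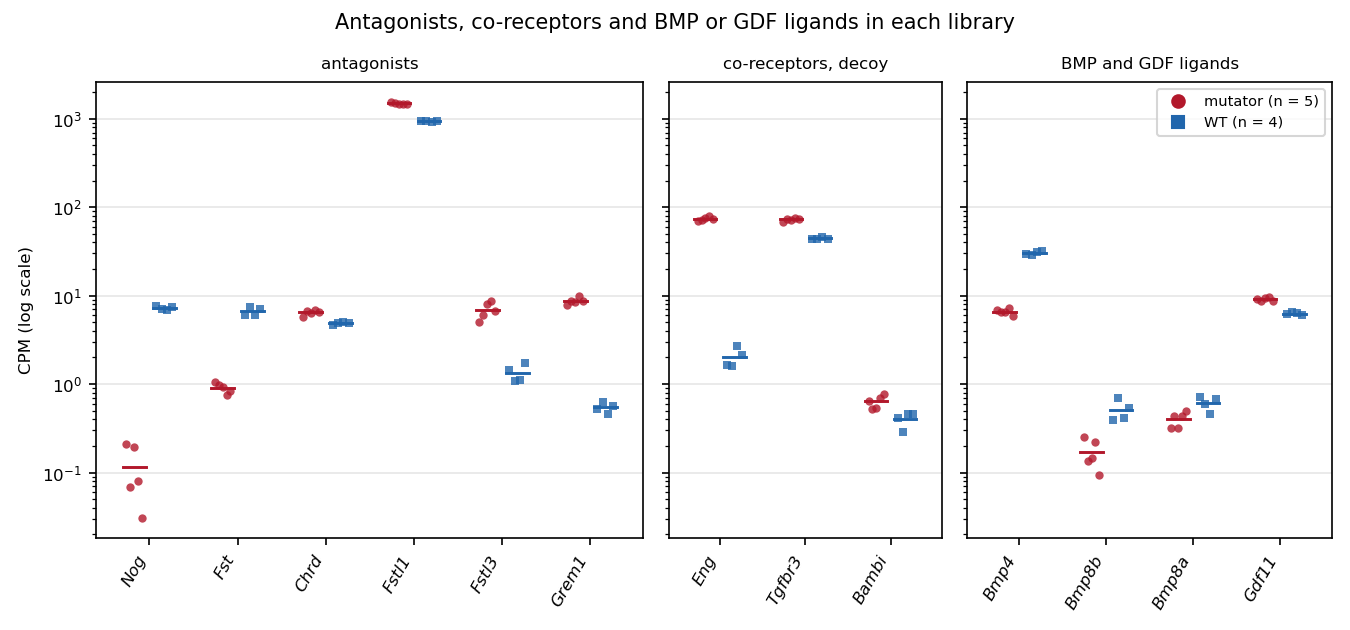
CPM in each library on a log axis for the antagonists, the co-receptors with the decoy receptor Bambi, and the BMP and GDF ligands; circles are mutator wells, squares WT wells and lines the means. Nog, Fst and Bmp4 sit lower in mutator, and Grem1, Fstl3 and Eng higher, with no overlap.

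The transcripts Nog, Chrd and Grem1, each of a BMP-binding antagonist, summed to 3.65 ± 0.257 CPM per kb in mutator (SD, n = 5) and 5.52 ± 0.198 CPM per kb in WT (SD, n = 4). In mutator, Grem1 made up 57.8 ± 1.27% of that sum, Chrd 40.3 ± 1.03% and Nog 1.93 ± 1.414%. WT had 2.38 ± 0.302% from Grem1, 20.1 ± 1.21% from Chrd and 77.5 ± 1.20% from Nog. Of the activin-binding pair, Fst was 8.47 ± 2.56% of the sum in mutator and 76.9 ± 4.30% in WT. The summed level of that pair was 3.85 ± 0.705 CPM per kb in mutator and 2.96 ± 0.286 CPM per kb in WT. These shares are descriptions without a test. The sum of Nog, Chrd and Grem1 covers these genes only and is no total of BMP antagonists. Fstl1, given above, is outside it, as is the chordin-like Chrdl1 (2.58 CPM per kb in mutator and 0.0792 in WT), and both were higher in mutator.

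**Figure D3:**
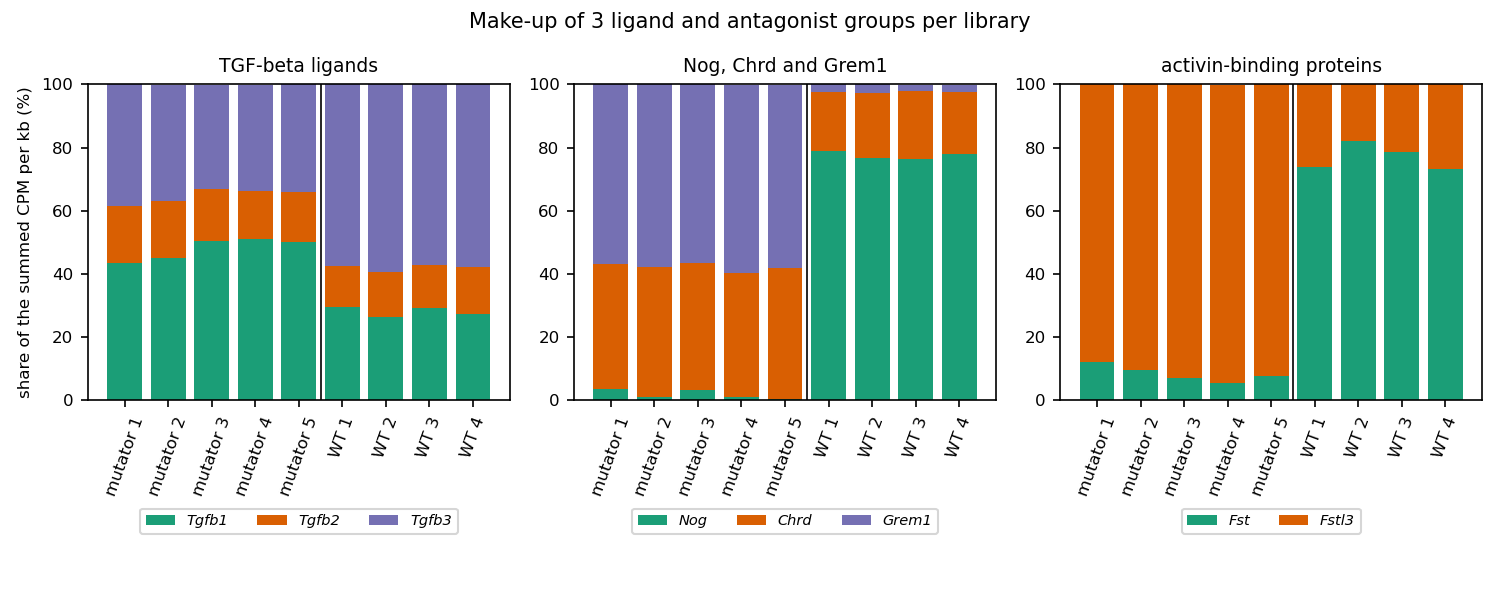
Share of each gene in the summed CPM per kb of the TGF-beta ligands, of Nog, Chrd and Grem1, and of the 2 activin-binding genes, each bar a library, with mutator libraries left of the WT libraries. Nog and Fst fill 1.93 ± 1.414% and 8.47 ± 2.56% of their groups in mutator, and 77.5 ± 1.20% and 76.9 ± 4.30% in WT.

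Among the co-receptors, which present ligand to the signalling receptors, Eng changed most. Endoglin, its product, is a TGF-beta and BMP co-receptor best known from endothelium. Eng (GRCm38 chromosome 2, 32646595 to 32682669) had 69.3, 72.5, 75.6, 79.98 and 73.4 CPM in the mutator wells, against 1.64, 1.61, 2.66 and 2.12 CPM in the WT wells. The lines were far apart, with a log2 fold change of 5.24 ± 0.082 (SE, edgeR adjusted p = 1.23e-19), or 37.7-fold. Endothelial markers were near 0 throughout: Pecam1, Cdh5, Kdr, Tek, Emcn and Cldn5 summed to 0.293 to 0.531 CPM in mutator and 0.685 to 1.20 CPM in WT, with Emcn and Cldn5 at 0 counts.

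Tgfbr3, encoding betaglycan, the co-receptor that captures TGF-beta2 and inhibin, rose as well. It had 68.8, 73.3, 72.03, 75.7 and 74.4 CPM in the mutator wells, against 44.3, 43.2, 46.2 and 43.8 CPM in the WT wells (log2 fold change 0.72 ± 0.034). Per kb, Eng stood above Tgfbr3 in mutator, 21.7 ± 1.16 and 11.97 ± 0.434 CPM per kb, whereas in WT Eng stood at 0.587 ± 0.145 and Tgfbr3 at 7.29 ± 0.213. Bambi, a decoy receptor without a kinase, was scarce at 0.636 ± 0.107 CPM in mutator (SD, n = 5) and 0.404 ± 0.0823 CPM in WT (SD, n = 4); its rise (log2 fold change 0.65 ± 0.22) did not pass without WT replicate 2 (edgeR adjusted p = 0.0553).

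Per kb, Bmp4 was the most abundant BMP or GDF ligand transcript in both lines, and it fell. Bmp4 (chromosome 14, 46383525 to 46390669) had 6.85, 6.51, 6.50, 7.29 and 5.87 CPM in the mutator wells, against 29.97, 28.6, 31.01 and 31.9 CPM in the WT wells, a 4.56-fold fall (log2 fold change -2.19 ± 0.055, edgeR adjusted p = 9.56e-17). The only other ligand of this group above 1 CPM was Gdf11, an activin-like ligand of axial patterning, which rose and averaged 9.13 ± 0.455 CPM in mutator (SD, n = 5) and 6.28 ± 0.206 CPM in WT (SD, n = 4) (log2 fold change 0.54 ± 0.061). Bmp8a and Bmp8b, near-identical neighbours on chromosome 4 whose reads may be split or lost between them, both stayed under 1 CPM. Bmp8b had 0.0926 to 0.254 CPM in mutator and 0.389 to 0.695 CPM in WT and fell (log2 fold change -1.51 ± 0.29). It passed the filter on low counts through WT alone, so this call is partly set by the filter. Bmp8a fell too (log2 fold change -0.63 ± 0.21), but did not pass without WT replicate 1 (edgeR adjusted p = 0.0538) or relative to the chromosome 4 median (log2 fold change -0.28). Summed per kb, the 4 ligands reached 5.67 ± 0.349 CPM per kb in mutator and 16.7 ± 0.616 CPM per kb in WT. Bmp4 held 56.4 ± 1.28% of that sum in mutator and 88.1 ± 0.927% in WT.

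Sequence before the start site was taken from RefSeq's GRCm38.p6 promoter table, which held 33 of the 44 genes. Shown are Eng and Grem1, the pair that rose most among genes with an entry, and Bmp4, the gene with an entry that fell most, so that their start regions can be set beside the changes given above. The windows are chr2:32646345-32646594 on the plus strand for Eng, chr2:113758649-113758898 on the minus strand for Grem1 and chr14:46390670-46390919 on the minus strand for Bmp4, each the 250 bases before the annotated start, 5′ to 3′ on the gene's strand. Capitals mark the SMAD box CAGAC (or GTCTG, its reverse complement) and the GC-rich SMAD motif GGCGCC, searched on both strands; none of the marked motifs overlap.
Eng: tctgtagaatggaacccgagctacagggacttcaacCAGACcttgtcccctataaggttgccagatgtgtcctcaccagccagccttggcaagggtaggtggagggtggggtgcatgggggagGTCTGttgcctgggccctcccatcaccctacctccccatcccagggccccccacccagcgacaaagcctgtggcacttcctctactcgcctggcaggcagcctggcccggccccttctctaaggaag
Grem1: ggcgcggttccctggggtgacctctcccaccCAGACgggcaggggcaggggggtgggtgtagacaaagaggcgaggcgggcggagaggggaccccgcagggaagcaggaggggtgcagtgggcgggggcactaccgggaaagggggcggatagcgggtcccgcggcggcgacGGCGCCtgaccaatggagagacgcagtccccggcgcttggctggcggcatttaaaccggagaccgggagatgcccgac
Bmp4: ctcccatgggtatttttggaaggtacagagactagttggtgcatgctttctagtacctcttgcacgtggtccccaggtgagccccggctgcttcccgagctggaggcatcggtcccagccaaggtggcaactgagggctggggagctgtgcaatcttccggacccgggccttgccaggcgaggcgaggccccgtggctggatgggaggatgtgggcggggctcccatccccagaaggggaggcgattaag

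Eng held CAGAC or GTCTG 2 times, Grem1 held it 1 time and GGCGCC 1 time, and the Bmp4 window held neither. Over all 32851 windows of this length in the table, 42.2% held CAGAC or GTCTG and 9.59% held GGCGCC. The 44 genes had 38 windows, of which 16 held the SMAD box and 11 held GGCGCC. The palindrome GTCTAGAC was in 0 of them and in 0.167% of all windows. These matches describe letters in the window only.

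Bmp2k, which carries the name but encodes a kinase, had 36.9, 36.99, 35.1, 33.999 and 32.8 CPM in the mutator wells, against 32.9, 34.1, 31.8 and 31.9 CPM in the WT wells. Its small rise (log2 fold change 0.11 ± 0.041, edgeR adjusted p = 0.0243) lost its call relative to the chromosome median and without WT replicate 3 or 4 or mutator replicate 1 or 2 (edgeR adjusted p = 0.0534 to 0.0747 in those 4 fits).

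Most other BMP ligand genes were hardly counted. Over the 5 mutator and the 4 WT libraries, Bmp2 had 7 and 30 counts, Bmp7 15 and 0, and Bmp6 6 and 6. The remaining symbols under the minimum were Acvr1c, Bmp3, Bmp5, Bmp15, Gdf6 and Inhbe with 2 to 16 counts in all, and Bmp1, Bmp10, Gdf10 and Inhbc with none. A count of 0 allows up to 0.00902 CPM over the 9 libraries (3 counts; counting error only). Bmp1, a procollagen protease that is not a ligand, is usually made by fibroblasts, and why its row holds 0 was not tested.

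The 3 TGF-beta ligand genes moved in different directions. Tgfb1 (chromosome 7, 25687002 to 25705077) had 29.9, 30.6, 35.8, 39.5 and 35.4 CPM in the mutator wells, against 22.5, 19.04, 22.6 and 21.5 CPM in the WT wells, with no overlap although the mutator wells varied (log2 fold change 0.68 ± 0.075, edgeR adjusted p = 1.65e-07). Tgfb3 (chromosome 12, 86056743 to 86079041) went the other way and had 34.95, 32.8, 30.9, 34.3 and 31.6 CPM in the mutator wells, against 57.98, 56.7, 58.1 and 59.8 CPM in the WT wells (log2 fold change -0.82 ± 0.037, edgeR adjusted p = 4.7e-13). Tgfb2 had 24.6, 24.6, 23.5, 23.1 and 22.3 CPM in the mutator wells, against 19.98, 20.8, 21.003 and 23.3 CPM in the WT wells; the lines overlapped and the rise was small (log2 fold change 0.16 ± 0.047). The summed level per kb was 27.7 ± 1.413 CPM per kb in mutator and 29.7 ± 1.01 CPM per kb in WT, so Tgfb1 and Tgfb3 each changed more than the sum. Tgfb3 held 35.2 ± 2.35% of it in mutator and 57.9 ± 1.002% in WT, and Tgfb1 48.03 ± 3.53% and 28.04 ± 1.55%. Which of the pair led in mutator depended on the length used: with the length of all annotated exons, a choice made after seeing the data, Tgfb3 held 47.2% and Tgfb1 32.9% there.

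Activin subunit genes rose. Inhba, which encodes the subunit of activin A, had 51.7, 52.7, 50.4, 49.7 and 51.3 CPM in the mutator wells, against 32.9, 37.6, 34.1 and 32.9 CPM in the WT wells, so that all mutator wells stood above all WT wells (log2 fold change 0.57 ± 0.039, edgeR adjusted p = 1.76e-10). Inhbb, for activin B, was less abundant per kb and had 4.08, 4.06, 3.42, 4.78 and 4.29 CPM in the mutator wells, against 1.58, 1.26, 1.75 and 1.73 CPM in the WT wells, 2.63-fold higher. Beside them, the activin antagonist gene Fst fell and Fstl3 rose, as given above.

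**Figure D4:**
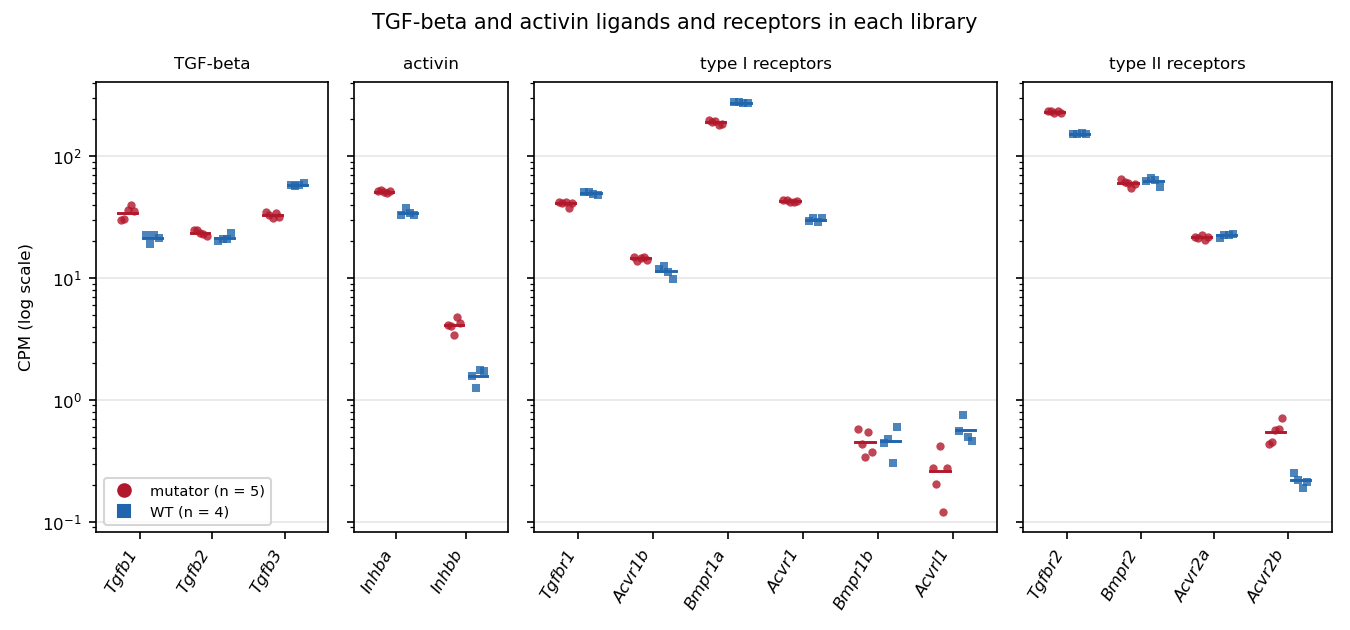
CPM in each library on a log axis for the TGF-beta and activin ligand genes and the type I and type II receptor genes; circles are mutator wells, squares WT wells and lines the means. Tgfb1 and Tgfb3 move in opposite directions, and Tgfb2, Bmpr1b, Bmpr2 and Acvr2a overlap between the lines.

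Type II receptors, the constitutively active kinases, were led per kb by Tgfbr2, which rose. Tgfbr2 had 235, 236, 227, 234 and 225 CPM in the mutator wells, against 151, 151, 154 and 152 CPM in the WT wells, a difference many times the spread between wells (log2 fold change 0.61 ± 0.023, edgeR adjusted p = 2.47e-14). It lies on chromosome 9, whose tested genes had a median log2 fold change of 0.40, and relative to that median its change was 0.21. Bmpr2, the BMP type II receptor, had 54.6 to 64.9 CPM in mutator and 55.8 to 65.9 CPM in WT and did not pass (log2 fold change -0.051 ± 0.049, edgeR adjusted p = 0.339); without WT replicate 4 it passed at -0.10. The activin receptor gene Acvr2a did not pass either, at 21.5 ± 0.827 CPM in mutator (SD, n = 5) and 22.4 ± 0.745 CPM in WT (SD, n = 4). Relative to the chromosome 2 median (0.31) it was at -0.37 and passed. Acvr2b, a further activin receptor gene, stayed under 1 CPM, with 0.438 to 0.710 CPM in mutator and 0.190 to 0.2498 CPM in WT. It rose (log2 fold change 1.28 ± 0.25), but passed the filter on low counts through mutator alone, so this call is partly set by the filter.

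Of the type I receptors, which phosphorylate the SMADs, the BMP receptor gene Bmpr1a was the most abundant per kb and fell. Bmpr1a had 199, 191, 194, 181 and 184 CPM in the mutator wells, against 277, 278, 272 and 271 CPM in the WT wells (log2 fold change -0.53 ± 0.027, edgeR adjusted p = 2.41e-12; -0.29 relative to its chromosome). Acvr1, which encodes the type I receptor ALK2, rose and averaged 43.05 ± 0.896 CPM in mutator (SD, n = 5) and 30.02 ± 1.26 CPM in WT (SD, n = 4) (log2 fold change 0.52 ± 0.034; 0.21 relative to its chromosome). Per kb, Bmpr1a held 57.4 ± 0.526% of the type I sum in mutator and 69.2 ± 0.392% in WT, and Acvr1 23.6 ± 0.576% and 13.7 ± 0.542%. Tgfbr1, the TGF-beta type I receptor ALK5, had 42.4, 41.4, 42.4, 37.6 and 41.5 CPM in the mutator wells, against 51.1, 50.3, 48.97 and 48.2 CPM in the WT wells. All of its mutator wells were below all WT wells (log2 fold change -0.28 ± 0.038, edgeR adjusted p = 2.28e-06), but chromosome 4 as a whole had a median of -0.36, and relative to it Tgfbr1 was at 0.079 and did not pass. The activin receptor gene Acvr1b rose and averaged 14.5 ± 0.482 CPM in mutator (SD, n = 5) and 11.3 ± 1.15 CPM in WT (SD, n = 4). Acvrl1 (ALK1) and Bmpr1b stayed under 1 CPM. Acvrl1 fell (log2 fold change -1.17 ± 0.29), but passed the filter on low counts through WT alone, so this call is partly set by the filter. Bmpr1b was at 0.006 ± 0.24, or 0.73 and past the threshold relative to chromosome 3.

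Inside the cell, none of the 5 receptor SMAD genes changed by 2-fold: 3 rose, and Smad5 and Smad9 did not pass. Of all genes 40.7% rose and 17.8% were called at 2-fold or more, so neither count sets the receptor SMADs apart. Smad3, the SMAD of the TGF-beta and activin branch that binds DNA directly, had 94.9, 95.7, 94.98, 96.5 and 97.2 CPM in the mutator wells, against 71.1, 75.1, 75.2 and 74.9 CPM in the WT wells (log2 fold change 0.37 ± 0.026, edgeR adjusted p = 3.4e-10). The lines did not overlap, yet relative to the chromosome 9 median the value was -0.028 and did not pass (edgeR adjusted p = 0.333). Smad1 of the BMP branch rose and averaged 34.3 ± 1.37 CPM in mutator (SD, n = 5) and 24.5 ± 1.30 CPM in WT (SD, n = 4) (log2 fold change 0.48 ± 0.042). Its partner Smad5, the most abundant receptor SMAD per kb, had 133, 134, 131, 124 and 131 CPM in the mutator wells, against 133, 142, 131 and 133 CPM in the WT wells and overlapped between the lines (log2 fold change -0.044 ± 0.029, edgeR adjusted p = 0.166).

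Smad2 (log2 fold change 0.12 ± 0.033) and the common Smad4 (0.13 ± 0.024), both on chromosome 18, rose slightly, and neither passed relative to that chromosome's median (0.011 and 0.019). The Smad4 wells had 118, 119.9, 120.2, 115 and 118 CPM in mutator and 107, 110.3, 109 and 105 CPM in WT. Smad9, at 20.7 ± 0.608 CPM in mutator (SD, n = 5) and 19.7 ± 0.954 CPM in WT (SD, n = 4), lies on chromosome 3, whose median was -0.73; relative to that it was at 0.81 and passed (edgeR adjusted p = 6.38e-12), as it did under upper quartile scaling (0.12) and a filter of 10 CPM in 4 libraries (0.10).

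Both inhibitory SMAD genes and both SMURF ligase genes, whose products turn the pathway down, rose, beside 40.7% of all genes that rose and 79.9% called in either direction. Smad6 (chromosome 9, 63953076 to 64022085), which mainly restrains BMP signals, had 16.1, 17.99, 20.2, 21.6 and 18.8 CPM in the mutator wells, against 7.44, 6.03, 7.001 and 7.14 CPM in the WT wells, with the lowest mutator well above the highest WT well. Its log2 fold change was 1.46 ± 0.085 (edgeR adjusted p = 1.89e-11), and 1.06 relative to chromosome 9. Smad7, which restrains both branches, had 45.2, 45.4, 44.05, 45.9 and 48.8 CPM in the mutator wells, against 35.3, 36.1, 38.8 and 38.2 CPM in the WT wells (log2 fold change 0.31 ± 0.038; 0.19 relative to its chromosome). Smurf2, a ubiquitin ligase for SMADs and receptors, had 140.0, 136, 138, 134 and 135 CPM in the mutator wells, against 106, 111, 105 and 99.8 CPM in the WT wells (log2 fold change 0.37 ± 0.029). The related ligase gene Smurf1 averaged 129.9 ± 5.47 CPM in mutator (SD, n = 5) and 107 ± 1.53 CPM in WT (SD, n = 4) (log2 fold change 0.28 ± 0.03). Per kb, Smad6 held 37.2 ± 2.74% of the inhibitory SMAD sum in mutator and 21.1 ± 1.62% in WT.

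**Figure D5:**
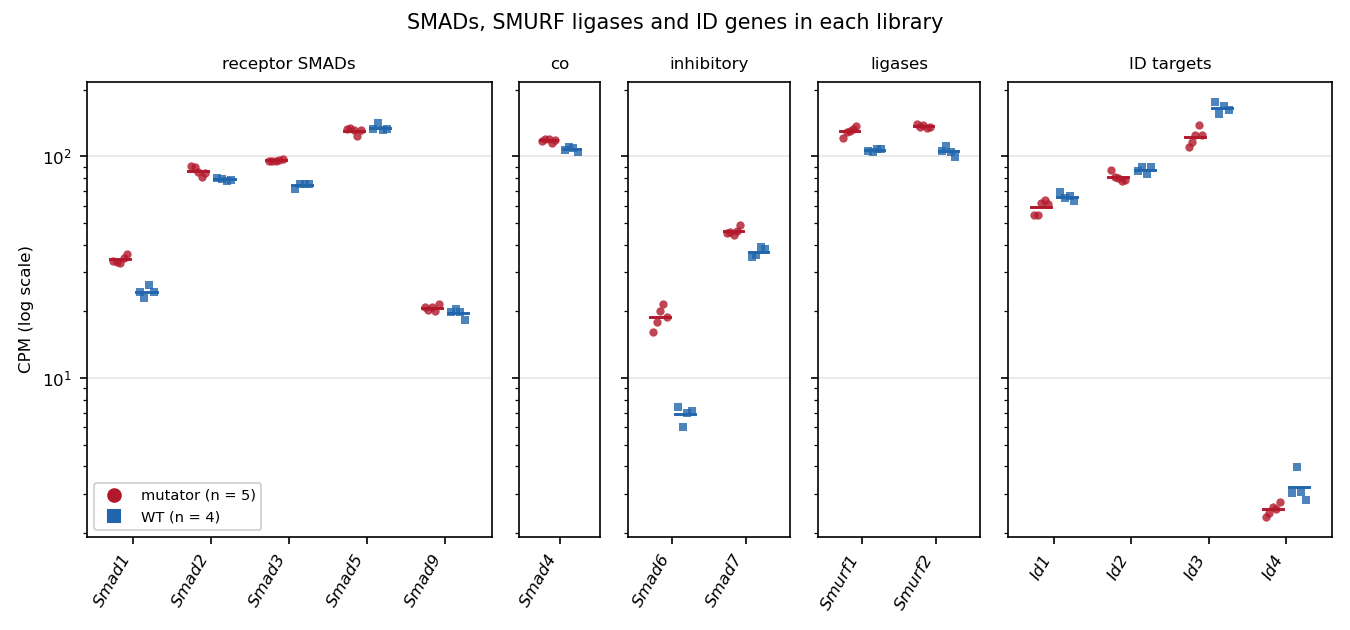
CPM in each library on a log axis for the receptor, common and inhibitory SMADs, the SMURF ligases and the ID genes; circles are mutator wells, squares WT wells and lines the means. Smad6 shows the widest gap between the lines, and Id1, Id2, Smad5 and Smad9 overlap.

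All 4 ID genes, the inhibitor-of-differentiation factors that are direct BMP targets, fell, each by less than 2-fold, beside 39.2% of all genes that fell and 79.9% called in either direction. Relative to the chromosome medians 3 of them fell. Id3 had 110.0, 116, 125, 139 and 125 CPM in the mutator wells, against 175, 155, 169 and 161 CPM in the WT wells, with mutator replicate 1 lowest and mutator replicate 4 nearest to the WT wells. Its log2 fold change was -0.43 ± 0.05 (edgeR adjusted p = 3.95e-07), but relative to chromosome 4 it was -0.07 and did not pass (edgeR adjusted p = 0.216). Id1 had 54.3, 54.6, 61.9, 63.4 and 60.9 CPM in the mutator wells, against 68.997, 64.9, 66.4 and 62.7 CPM in the WT wells; mutator replicate 4 lay above WT replicate 4, and the log2 fold change was -0.16 ± 0.046, or -0.47 relative to chromosome 2. Id2 had 87.2, 80.4, 79.9, 77.2 and 78.2 CPM in the mutator wells, against 85.8, 89.4, 83.6 and 89.5 CPM in the WT wells, overlapping as well, with a log2 fold change of -0.11 ± 0.035 that did not pass under upper quartile scaling (-0.068, edgeR adjusted p = 0.0912). Id4, the least abundant of them per kb, was at 2.56 ± 0.152 CPM in mutator (SD, n = 5) and 3.23 ± 0.512 CPM in WT (SD, n = 4) (log2 fold change -0.34 ± 0.11).

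Other genes of the pathway came from 6 lists, whose counts are to be read against the 40.7% of all genes that rose and the 39.2% that fell. Itgb6, Chrdl1, Kcp, Wfikkn1, Htra3, Gdf5 and Postn of these lists passed the filter on low counts through mutator alone, so the counts of genes that rose are partly set by the filter. For the storage and activation of latent TGF-beta, 9 of 19 tested genes rose and 8 fell (median log2 fold change 0.20). The 3 largest changes, named next, were rises. The list summed to 6282 to 6500 CPM in mutator and 8070 to 8248 CPM in WT, not divided by length. This lower sum in mutator came from Thbs1, which averaged 1028 CPM in mutator and 3354 CPM in WT. Without Thbs1 the list summed higher in mutator than in WT. Mmp2, a gelatinase that can release TGF-beta, was at 353 ± 7.05 CPM in mutator (SD, n = 5) and 8.68 ± 0.396 CPM in WT (SD, n = 4) (log2 fold change 5.35 ± 0.034). Lrrc32, whose product GARP anchors latent TGF-beta at the cell surface, was at 224 ± 14.8 CPM in mutator (SD, n = 5) and 11.8 ± 0.790 CPM in WT (SD, n = 4) (4.26 ± 0.056). Ltbp2, of the latent TGF-beta binding protein family, rose to 25.9 CPM in mutator, against 3.51 CPM in WT.

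Among other modulators 10 of 17 tested rose and 5 fell (median log2 fold change 0.61); 1 of those that fell, Lemd3, encodes a nuclear envelope protein. Chrdl1, a chordin-like BMP antagonist, was at 10.57 ± 1.10 CPM in mutator (SD, n = 5) and 0.325 ± 0.0520 CPM in WT (SD, n = 4), and passed the filter through mutator alone (log2 fold change 5.01 ± 0.14). Tll1, a protease that cleaves chordin, averaged 14.8 CPM in mutator and 1.88 CPM in WT. The secreted protease gene Htra1 fell to 82.3 CPM in mutator, against 267 CPM in WT. Of other ligands and receptors of the family, 4 of 14 could be tested. Gdf5 was tested only because its mutator libraries passed the filter, so its call is partly set by the filter. The others rose, with Gdf15, a stress-induced distant member, at 7.83 and 2.23 CPM, Inha, the inhibin alpha subunit, at 2.397 and 1.53 CPM, and Tgfbrap1 at 54.5 and 51.5 CPM in mutator and WT. The small rise of Tgfbrap1 (log2 fold change 0.084 ± 0.033) did not pass without mutator replicate 1 or WT replicate 2 or 4.

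SMAD cofactors and turnover genes split, 15 of 28 higher and 10 lower (median log2 fold change 0.093). Zeb2, a SMAD-interacting repressor, was at 59.6 ± 0.587 CPM in mutator (SD, n = 5) and 13.3 ± 1.28 CPM in WT (SD, n = 4) (log2 fold change 2.17 ± 0.046). Nedd4l, a ubiquitin ligase for activated SMAD2 and SMAD3, fell to 20.1 CPM in mutator, against 63.3 CPM in WT. Ctdspl, a small C-terminal domain phosphatase, rose 2.04-fold.

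Genes listed as TGF-beta and SMAD3 targets gave 16 of 25 higher and 8 lower (median log2 fold change 0.34). Skil, Tgif1 and Pmepa1 are in this list and in that of SMAD cofactors and turnover, and are counted in both. Tgfbi, a matrix protein named for its induction by TGF-beta, was at 41.3 ± 2.52 CPM in mutator (SD, n = 5) and 2.63 ± 0.408 CPM in WT (SD, n = 4) (log2 fold change 3.98 ± 0.077). The list did not move as 1 block, since the collagen gene Col1a2 rose 12.6-fold and Acta2, the smooth muscle actin gene, fell 20.1-fold. Tagln, a further smooth muscle gene of the list, rose 1.71-fold. Of BMP target genes other than the ID genes, 5 of 14 rose and 8 fell (median log2 fold change -0.31). The homeobox gene Msx2 fell and averaged 2.62 ± 0.297 CPM in mutator (SD, n = 5) and 19.6 ± 0.498 CPM in WT (SD, n = 4) (log2 fold change -2.90 ± 0.068). Tbx20 fell to 3.27 CPM in mutator, against 36.6 CPM in WT, whereas Tbx3 rose to 13.9 CPM in mutator, against 1.85 CPM in WT; both encode T-box transcription factors of the embryo.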

How the data were processed

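The authors deposited raw counts per gene in 1 table. STAR 2.4.2a, HTSeq and mm10 are named in the submitters' processing notes; the annotation, the strand setting and the HTSeq version are not given there. A column was taken for a sample where its header equals that sample's description, and 5 further columns were not used. Genes were kept by filterByExpr, TMM-scaled, and tested by edgeR 4.0.16 in R 4.3.3 (quasi-likelihood F test, group the only term) over all genes, adjusted by Benjamini-Hochberg and called under 0.05; the function was tested on simulated data. SE was obtained as |log2 fold change| over the root of F. DESeq2 1.42.0 was an alternative. Chromosomes came from RefSeq GRCm38.p6 (22336 rows matched) and lengths from GENCODE M21 (GRCm38; all 44 genes matched). Chromosome medians entered the fit as an offset. In all 16 replicate pairs differences exceeded sampling noise (chi-square over its degrees of freedom 2.49 to 12.4), so each library entered the fit on its own. The wells remain technical replicates of 1 line per genotype. Members and lists were chosen with earlier results of these data known. Values in every library are given for the 14 largest changes past the threshold at 1 CPM or more, the most abundant gene of each role and a fixed set of ligands, receptors, SMADs and ID genes; of each list, the 3 largest changes past the threshold are named. Gdf5, Lemd3, Thbs1, Tagln and the other list genes named for the filter were named after their values were seen. The counts include 1 gene that is not reported here.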

Additional observations from a re-analysis of the deposited data

Results flagged for a closer look

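In 3 of 88 combinations of gene and line, 1 library stood apart from the others by more than Dixon's 95% limit; chance flags about 1 group in 20. Tgfbr1 was 37.6 CPM in mutator replicate 4, below the other mutator wells at 41.4 to 42.4 CPM. In WT replicate 1, Acvr2a was 21.3 CPM, with the other WT wells at 22.6 to 22.9 CPM. Smad3 was also low in WT replicate 1, 71.1 CPM, with 74.9 to 75.2 CPM in the other WT wells. Leaving out the library concerned changed the call of none of these 3 genes.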

How the results depend on the processing

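All 44 genes kept their direction and call under DESeq2's Wald test, DESeq2's size factors in edgeR, no filter on low counts and the replicate block. Calls that other settings changed are given beside their genes. Relative to the chromosome medians, 24 genes rose and 11 fell, and Tgfbr1 (0.079) and Smad3 (-0.028) turned sign without passing. With a filter of 10 CPM in 4 libraries, which leaves fewer genes to test, 20 genes rose and 7 fell; the list of other ligands and receptors kept 1 that rose, and the BMP target list 3 that rose and 5 that fell. Without a filter, 1 gene of the other ligands and receptors fell. With the length of all annotated exons, chosen after seeing the data, Tgfb3 held 47.2% of the TGF-beta ligand sum in mutator and 68.5% in WT, and Tgfb1 32.9% in mutator and 16.9% in WT. Leaving out each library in turn gave 25 to 26 genes that rose and 12 to 14 that fell. The all-gene median of the log2 fold change stayed within 0.055 of 0 under every setting run. With the replicate number as a block, 26 genes rose and 13 fell; same-numbered wells correlated at -0.08 to 0.027 over all genes, so the numbers did not pair the wells. Depth limits the genes under 1 CPM (Bmp8a, Bmp8b, Bambi, Bmpr1b, Acvrl1, Acvr2b) and those under the count minimum. The design has 1 line per genotype.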

Other observations

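Among the mutator wells, replicate 4 was the highest and replicate 1 the lowest in 9 of the 44 genes (Tgfb1, Chrd, Fstl3, Grem1, Eng, Tgfbr3, Smad6, Id1 and Id3), and the order of this pair was opposite in 8 genes (Fst, Fstl1, Bmpr1a, Tgfbr1, Bmpr2, Smad2, Smurf2 and Id2). Over all genes tested these patterns held for 12.6% and 11.4%. In Tgfb1 replicate 4 had 39.5 CPM and replicate 1 29.9 CPM, and in Smad6 they had 21.6 and 16.1 CPM. The pattern was looked for after the values were seen and was given no test.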
